A study of Mus musculus with 2 samples.

Results

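The barcodes with more than 5000 detected genes were examined in a droplet single-cell RNA-seq experiment on GR1+ cells of 4T1 mouse mammary tumors, at any share of unique molecular identifiers (UMIs) from mitochondrially encoded (mt-) genes. They numbered 185 of 7951 barcodes: 136 of 2947 (4.61%, exact binomial interval 3.89% to 5.44%) in the library of parental 4T1P tumors, which do not respond to anti-PD1, and 49 of 5004 (0.979%, 0.725% to 1.29%) in the library of mutagenized 4T1M tumors, which respond. The members were chosen by their number of detected genes, so their depth and gene numbers are descriptions and not findings. They held 25.8% of all UMIs of the 4T1P library (5648414 of 21855657) and 8.20% of those of the 4T1M library (1993705 of 24303957).

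4T1 is a transplantable carcinoma line of BALB/c mice. 4T1M came from the parental line by treatment with the mutagen MNNG and was checked in mice for its response; the study calls it a clone in some places and multiclonal in its methods, so how many clones it holds is not known here. Cells of either line were grown in the mammary fat pad of BALB/c mice, female by the methods and labelled as 6 to 8 weeks old, and GR1+ cells of the dissociated tumors were taken by positive bead selection. The labels name no treatment of either group. Each condition is 1 library of pooled mice (5 by the series record, fewer by the text of the study), so no difference between conditions has a replicate check, no p-value is given, and animal, library and tumor line cannot be told apart. The intervals given are 95% intervals of counting error alone.

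A droplet barcode is meant to mark 1 cell, and the number of genes seen in it increases with the number of UMIs read from it. Large or dividing cells carry more RNA, and carcinoma cells in culture and in tumors are usually larger than neutrophils, which hold little RNA. A droplet that takes up more than 1 cell also gives many genes, with the marker genes of each cell side by side. For these reasons an upper limit on genes per barcode is a common filter, and the study's methods apply one at this value; the barcodes described here are those such a limit removes.

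Lineages were read from 3 lists of 10 genes each, built around markers whose products are well known. Krt8 and Krt18 encode the paired keratins of simple epithelia and Epcam an adhesion molecule of epithelial cells; on GRCm38 they lie at chr15:101996698-102004482 (minus strand), chr15:102028180-102032027 (plus strand) and chr17:87635979-87651129 (plus strand). C1qa, a chain of complement component C1q, lies at chr4:136895917-136898803 (minus strand), and Csf1r, the receptor that macrophages need for survival, at chr18:61100598-61132149 (plus strand). S100a8, a subunit of the calprotectin that fills the neutrophil cytosol, lies at chr3:90668978-90670035 (plus strand). Counts are whole-gene UMIs, with exons and UTRs not told apart.

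The median barcode above 5000 genes held 37132 UMIs in 4T1P (22491 to 105873) and 34206 in 4T1M (24359 to 140658), with 5675 and 5470 genes. Its mt- share was 5.65% and 5.46%, and 3 and 1 barcodes were over 10%. Barcodes with 500 to 5000 genes and at most 10% mt- UMIs, the range kept by the study's gene and mt- limits, had medians of 3902.5 and 3183 UMIs. The study's methods then discarded non-myeloid and poorly classified cells, a step not taken here. The kept range below therefore can hold barcodes that the study removed. To compare lineages at 1 depth, every barcode was thinned to 5000 UMIs, which all members allow; 713 and 1123 of the 1726 and 3461 barcodes in the kept range were deep enough and serve as the comparison barcodes below (median 13399 and 10603 UMIs before thinning). At this equal depth the members still held slightly more genes, 2015.5 against 1816 in 4T1P and 1980 against 1766 in 4T1M as medians, with ranges that overlapped (1633 to 2303 against 812 to 2354 in 4T1P).

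The limit did not part lineages at its edge. The 10 members nearest to it held 5024 to 5077 genes in 4T1P and 5006 to 5161 in 4T1M, and the 10 barcodes just below it 4937 to 4999 and 4852 to 4980. All of these 40 barcodes carried macrophage markers and none carried tumor markers; neutrophil markers were carried by 3 inside and 2 outside in 4T1P and by 1 and 3 in 4T1M.

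Macrophage-marker barcodes made up most of the members, and tumor epithelial barcodes the second largest class, in both libraries; above 6000 genes the tumor share was as large as the macrophage share in 4T1P (41.2% each) and larger in 4T1M (76.9% against 23.1%). A lineage was called carried where at least 3 of its 10 markers had a UMI among the 5000. In 4T1P, 82 of 136 members carried macrophage markers alone (60.3%, 51.6% to 68.6%), 32 carried tumor epithelial markers alone (23.5%, 16.7% to 31.6%), 8 carried macrophage and neutrophil markers, 2 neutrophil markers alone, 1 tumor and neutrophil markers, and 11 none of the 3 lists. In 4T1M, 29 of 49 carried macrophage markers alone (59.2%), 10 tumor markers alone, 9 macrophage and neutrophil markers and 1 tumor and neutrophil markers. Macrophage markers alone were carried by 60.9% of the comparison barcodes in 4T1P (434 of 713) and 43.5% in 4T1M (488 of 1123). Any macrophage call was made in 66.2% of members (57.6% to 74.1%) against 71.7% of comparison barcodes in 4T1P. In 4T1M these shares were 77.6% (63.4% to 88.2%) against 61.6% (58.7% to 64.5%). The direction thus differed between libraries, with intervals that overlapped in both.

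**Figure D1:**
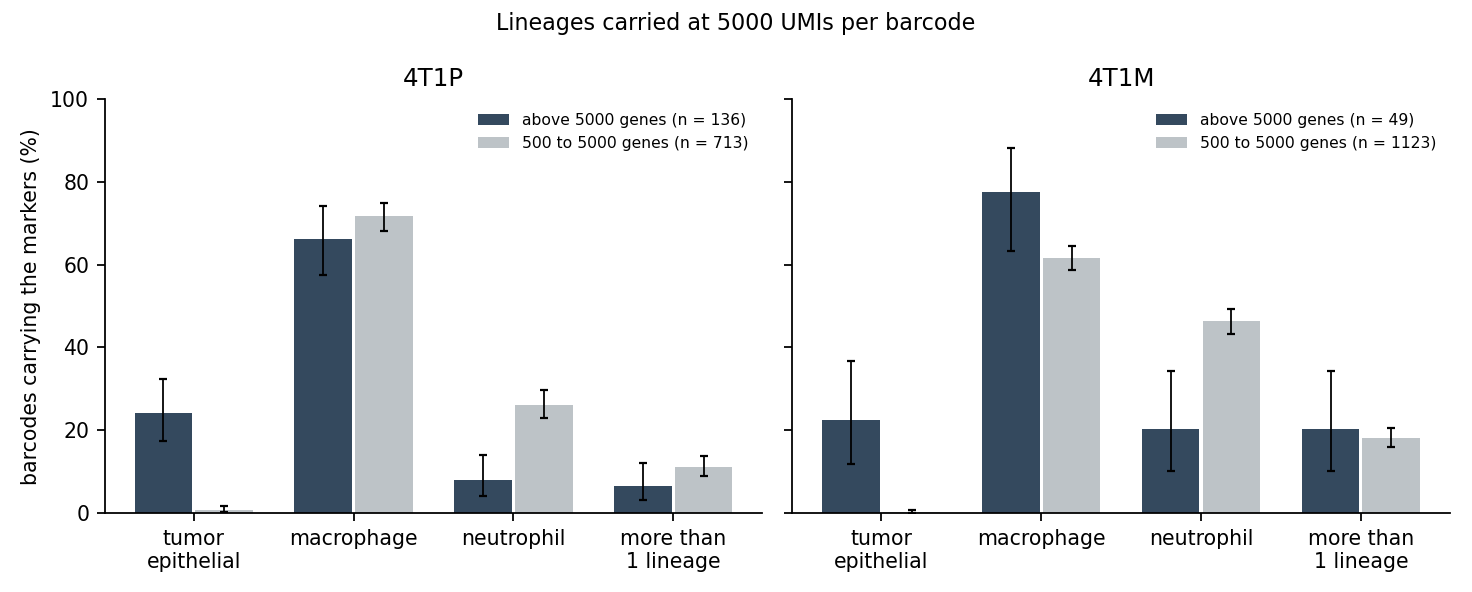
Share of barcodes (%, linear axis from 0) that carry each lineage, or more than 1, at 5000 UMIs in 4T1P (left) and 4T1M (right); dark bars are barcodes above 5000 genes, grey bars comparison barcodes with 500 to 5000 genes, and lines are exact 95% binomial intervals. Tumor epithelial markers were carried by 24.3% and 22.4% of the barcodes above 5000 genes against 0.701% and 0.267% of the comparison barcodes.

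The tumor epithelial lineage set the members apart from the rest of the libraries. Any tumor call was made in 33 of 136 members of 4T1P (24.3%, 17.3% to 32.4%) and 11 of 49 of 4T1M (22.4%, 11.8% to 36.6%), against 5 of 713 (0.701%, 0.228% to 1.63%) and 3 of 1123 (0.267%, 0.0551% to 0.779%) of the comparison barcodes. Seen from the other side, 33 of the 43 tumor-carrying barcodes of 4T1P with at least 5000 UMIs lay above 5000 genes (76.7%, 61.4% to 88.2%), and 11 of 16 in 4T1M (68.8%, 41.3% to 89.0%). Of the remainder, 5 and 3 lay in the kept range and 5 and 2 were over 10% mt-. Only a small part of the macrophage-carrying barcodes with at least 5000 UMIs lay above the limit: 90 of 699 in 4T1P (12.9%) and 38 of 795 in 4T1M (4.78%).

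Neutrophil markers were carried by a smaller share of the members than of the comparison barcodes in both libraries. Neutrophil markers were carried by 11 of 136 members in 4T1P (8.09%, 4.11% to 14.0%) against 187 of 713 comparison barcodes (26.2%), and by 10 of 49 in 4T1M (20.4%, 10.2% to 34.3%) against 520 of 1123 (46.3%). Of the neutrophil-carrying barcodes with at least 5000 UMIs, just 4.00% in 4T1P (11 of 275) and 1.63% in 4T1M (10 of 612) had more than 5000 genes. Shallower barcodes had no call at this depth and are not in these totals. Without thinning, 80 of 136 members (58.8%) and 37 of 49 (75.5%) passed the same 3-marker rule for neutrophils, a rule that depends on depth.

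A background of lineage markers was gauged in comparison barcodes with at least 3 T or NK cell markers or 3 B or plasma cell markers. Such barcodes should hold none of the 3 lineages if each is 1 cell. Whether markers found in them came from free RNA or from a second cell was not tested. Among 51 such barcodes of 4T1P (median 7088 UMIs) and 75 of 4T1M (median 6742), tumor markers were carried by 0 and 0, which allows shares of up to 5.88% and 4.00% (3 counts of the total). Macrophage markers were carried by 1 and 2 of them, and neutrophil markers by 1 (1.96%, 0.0496% to 10.4%) and 6 (8.00%, 2.99% to 16.6%). The neutrophil share of the members lay within the interval of this background in 4T1P (8.09%) and above its upper bound in 4T1M (20.4% against 16.6%), while the tumor and macrophage shares lay above it in both libraries. The members were deeper before thinning (median 37132 and 34206 UMIs), so this background was not matched to them and does not settle the neutrophil share.

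No member reached the 3-marker call for tumor and macrophage together, although single UMIs of the other list did occur. The tumor+macrophage call was made in 0 of 136 and 0 of 49 members, which allows a share of up to 2.21% and 6.12% (taking 3 counts of the total as the limit of a count of 0), and in 0 comparison barcodes of either library. In the 32 tumor-only members of 4T1P the tumor list had a median of 20 UMIs per 5000 (5 to 147) and the macrophage list was at 0 in 27, with at most 3 UMIs. In the 82 macrophage-only members the macrophage list had a median of 52 UMIs per 5000 (7 to 97) and the tumor list was at 0 in 79, with at most 1 UMI. The 4T1M library showed the same separation, with 21 tumor-list UMIs (11 to 38) and 0 macrophage-list UMIs in 9 of its 10 tumor-only members, and 57 macrophage-list UMIs (25 to 92) and 0 tumor-list UMIs in all 29 macrophage-only members.

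**Figure D2:**
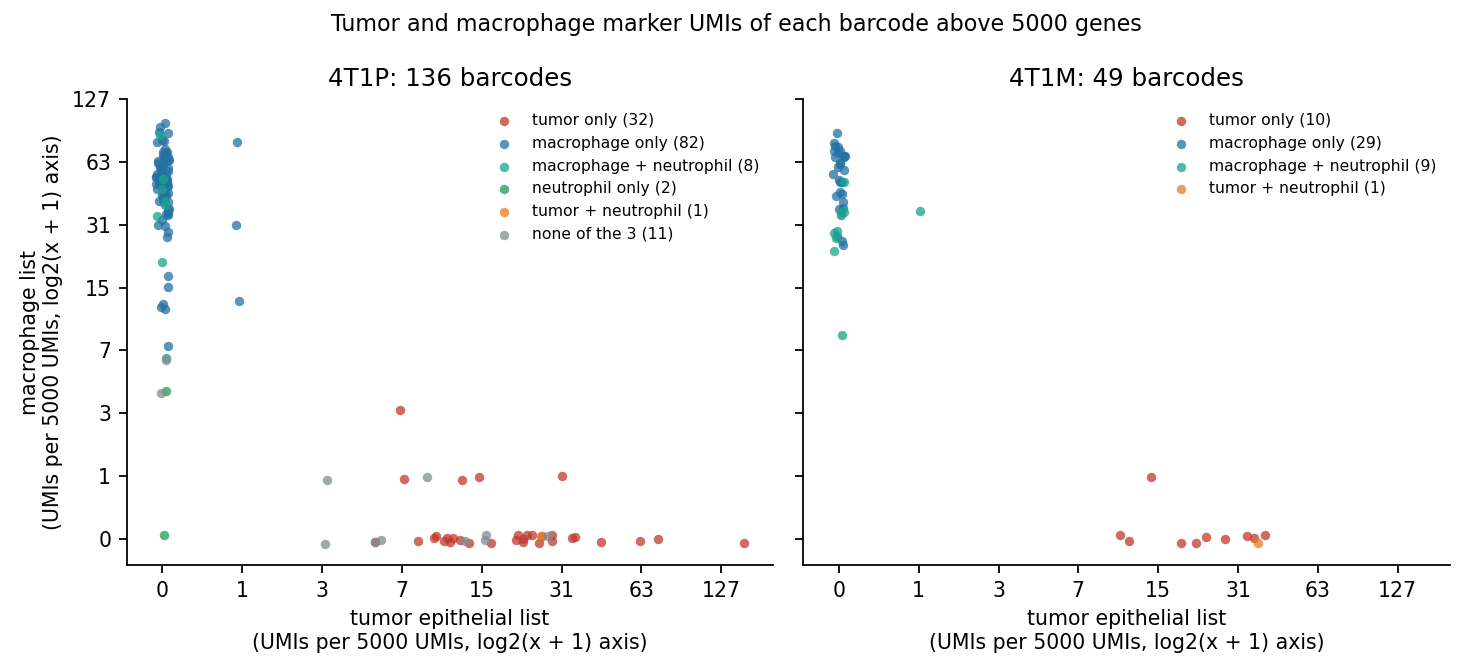
UMIs of the tumor epithelial list (x) and the macrophage list (y) per 5000 UMIs in each barcode above 5000 genes, on log2(x + 1) axes labelled in UMIs with a small sideways shift to part points, 4T1P left and 4T1M right, colored by the lineages carried. Points follow the axes: no barcode has more than 3 macrophage-list UMIs together with more than 1 tumor-list UMI.

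Single markers gave the same picture on summed counts. Krt8 stood at 1380 counts per 1000000 UMIs of the class (CPM) in tumor-only members of 4T1P (exact Poisson interval 1323 to 1439) and 1348 CPM in those of 4T1M (1262 to 1438), and every one of the 42 barcodes had a Krt8 UMI, from 266 to 8803 CPM in 4T1P and from 314 to 2391 CPM in 4T1M. In macrophage-only members Krt8 stood at 1.94 CPM (6 UMIs in 82 barcodes) and 0 CPM. Epcam was found in 30 of 32 and 10 of 10 tumor-only barcodes, at 671 and 1040.5 CPM. C1qa ran the other way, at 3248 CPM (3185 to 3312) and 3727 CPM (3604 to 3853) in macrophage-only members against 3.78 and 2.96 CPM in tumor-only members, and Csf1r stood at 514 and 450 CPM against 2.52 and 1.48 CPM. These genes belong to the lists that made the calls, so their levels describe the classes and do not test them.

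Neutrophil transcripts were present at low levels in tumor-only members. S100a8 stood at 25.2 CPM in tumor-only members of 4T1P, with a UMI in 21 of 32 barcodes, and at 129 CPM in those of 4T1M, with a UMI in 10 of 10. The T, NK and B comparison barcodes held 436 CPM in both libraries, a sum that few barcodes carried: their median barcode was at 0 CPM in 4T1P and 107 CPM in 4T1M and the highest at 12314 and 12805 CPM. By the whole neutrophil list, tumor-only members had medians of 0 and 2 UMIs per 5000 and the T, NK and B barcodes of 1 and 2. Neutrophil-only comparison barcodes held S100a8 at 104492 and 73201 CPM. The source of these UMIs in tumor-only members was not tested.

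Mixed members were nearly all of the macrophage and neutrophil kind, and their neutrophil content differed widely. The 8 of 4T1P held 3, 4, 20, 28, 35, 37, 42 and 116 neutrophil-list UMIs per 5000, with 6 to 82 macrophage-list UMIs. The 9 of 4T1M held 3, 4, 53, 95, 169, 172, 219, 236 and 1435, with 9 to 50 macrophage-list UMIs. Neutrophil-only comparison barcodes had medians of 1245 and 657 neutrophil-list UMIs, so 1 mixed member lay above both medians and the other 16 below them. Carrying more than 1 lineage was not particular to high gene numbers: 9 of 136 (6.62%, 3.07% to 12.2%) and 10 of 49 members (20.4%, 10.2% to 34.3%) were mixed, against 80 of 713 (11.2%, upper bound 13.8%) and 205 of 1123 comparison barcodes (18.3%, 16.0% to 20.6%).

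The 2 mixed members of tumor kind had 27 tumor-list and 9 neutrophil-list UMIs per 5000 in 4T1P, and 35 and 25 in 4T1M, where the barcode also had 14.8% mt- UMIs. The 2 neutrophil-only members of 4T1P held 8 and 4 neutrophil-list UMIs, and the second also held 11 UMIs of the T or NK list and 18 of the proliferation list, so its name goes against its leading markers. T or NK markers were carried by 2 members of 4T1P and 1 of 4T1M, fibroblast markers by 1 and 0, and B or plasma, dendritic, endothelial and mast cell markers by none. No doublet caller was run, so whether a mixed barcode held 2 cells was not tested.

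Of the 11 members of 4T1P that carried none of the lists, 9 held tumor-list UMIs from fewer than 3 markers at 5000 UMIs. They had 3 to 28 tumor-list UMIs per 5000, against 5 to 147 in tumor-only members, and before thinning 30 to 261, most of them from Krt8 (8 to 124) and Krt18 (22 to 129). Another held 300 fibroblast-list UMIs per 5000, with 749 UMIs of Col3a1 and 398 of Col1a1, which encode fibrillar collagens, in full depth. The last had 4 macrophage-list UMIs per 5000 and no Krt8 or Krt18.

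Xist, the noncoding RNA that coats the inactive X chromosome in female cells, was in none of the lineage lists and divided the macrophage members of 4T1P; it was chosen after its values were seen. All 29 macrophage-only members of 4T1M held Xist, 28 of them with 8 to 69 UMIs (median 26). Of the 82 in 4T1P, 39 held 0 UMIs (47.6%, 36.4% to 58.9%), 4 held 1 or 2 and 39 held 9 to 75 (median 24), and the barcodes at 0 were no shallower (median 36759 against 34056 UMIs). The macrophage-only comparison barcodes showed it as well, with 197 of 434 at 0 in 4T1P (45.4%, 40.6% to 50.2%) and 15 of 488 in 4T1M (3.07%, 1.73% to 5.02%). Tsix, the antisense partner of Xist, had a UMI in 18 of the 39 Xist-rich members and in 0 of the 39 at 0. The Y-linked genes Ddx3y, Eif2s3y, Uty and Kdm5d had 0 UMIs in the members of both libraries. The labels do not tie barcodes to mice, and the cause of the division was not tested.

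Xist had no UMI in nearly all tumor-only members. It was at 0 in 30 of 32 in 4T1P, the others holding 8 and 79 UMIs, and in 8 of 10 in 4T1M, the others holding 1 and 3. All 9 barcodes without a call that held Krt8 and Krt18 were at 0, while the fibroblast-marker barcode held 36 Xist UMIs and the remaining one 45. In the macrophage and neutrophil mixed members Xist was held by 6 of 8 and 9 of 9.

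**Figure D3:**
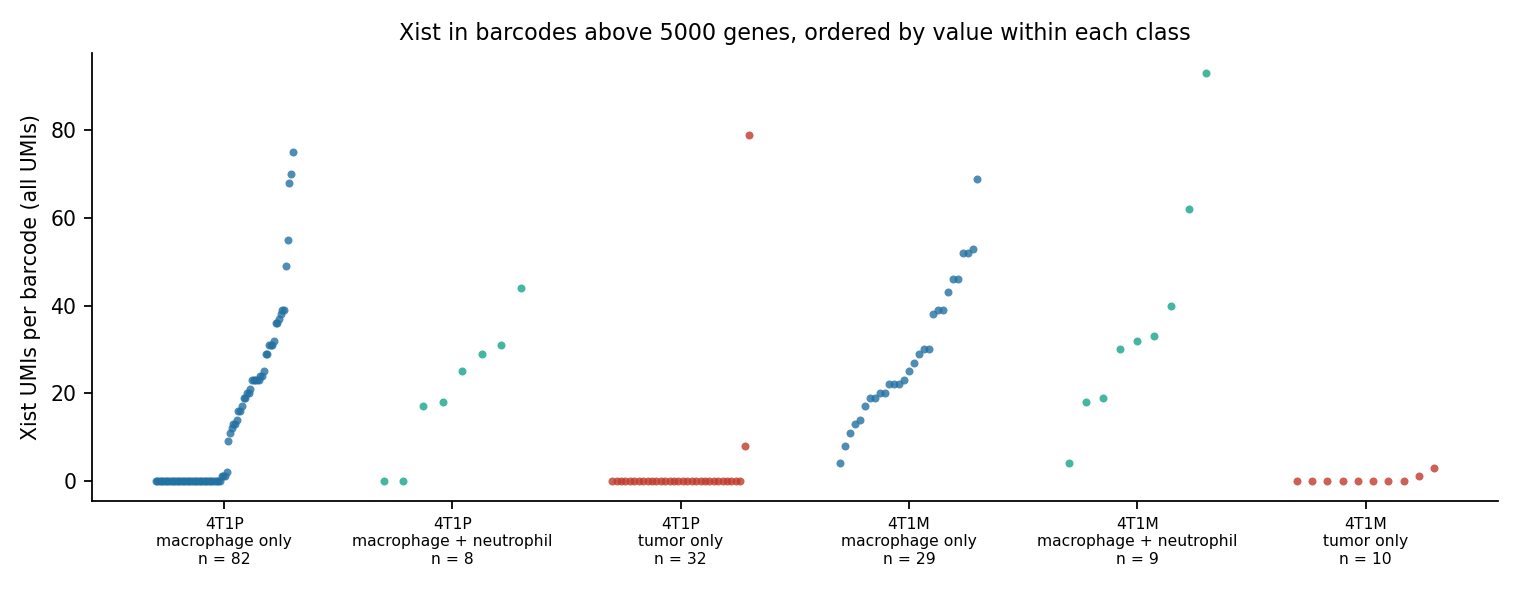
Xist UMIs per barcode (y, all UMIs, linear axis) in members that carry macrophage markers only, macrophage and neutrophil markers, or tumor markers only, ordered by value within each class along x. In 4T1P, 39 of 82 macrophage-only barcodes are at 0 and 39 at 9 or above, while all 29 of 4T1M are above 0; 30 of 32 and 8 of 10 tumor-only barcodes are at 0.

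Proliferation genes were carried more often by the members than by the comparison barcodes, with intervals that did not overlap. At least 3 of 12 genes of the division cycle, among them Mki67, Top2a and Cdk1, had a UMI among the 5000 in 47 of 136 members of 4T1P (34.6%, 26.6% to 43.2%) and 19 of 49 of 4T1M (38.8%, 25.2% to 53.8%), against 39 of 713 (5.47%, 3.92% to 7.40%) and 46 of 1123 comparison barcodes (4.10%, 3.01% to 5.43%). Without thinning the members' shares were 58.8% and 69.4%. The difference held within the macrophage-only class, at 30 of 82 (36.6%) against 28 of 434 (6.45%) in 4T1P and 12 of 29 (41.4%) against 25 of 488 (5.12%) in 4T1M. Tumor-only members carried the list in 9 of 32 (28.1%, 13.7% to 46.7%) and 2 of 10 (2.52% to 55.6%), and T, NK and B comparison barcodes in 4 of 51 and 6 of 75.

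**Figure D4:**
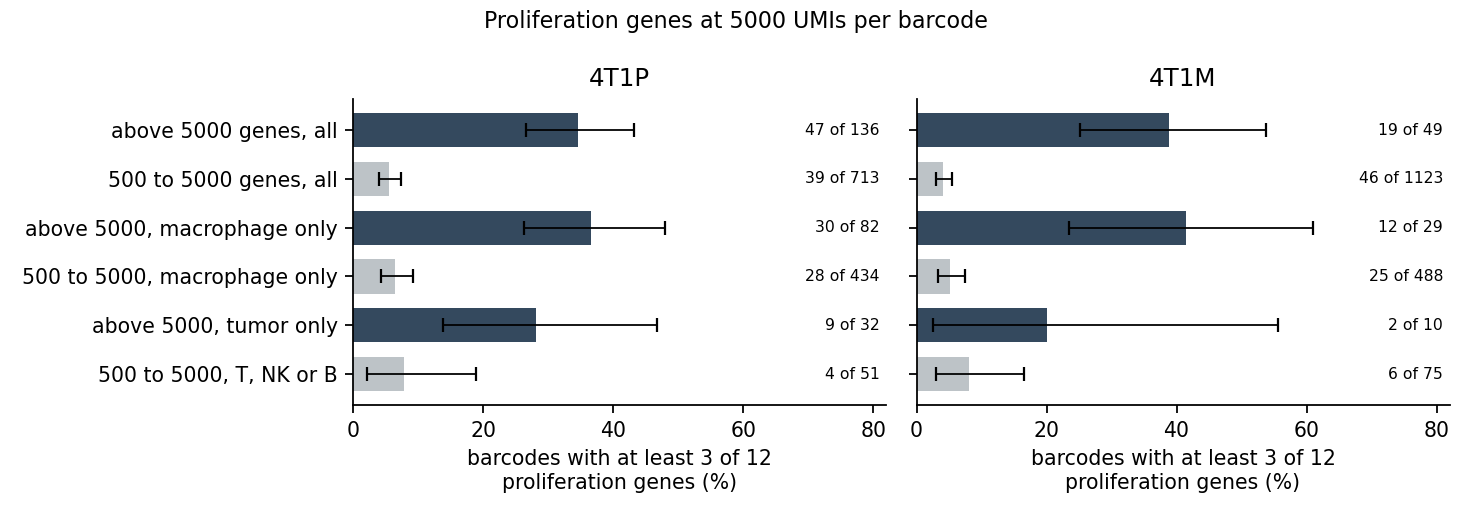
Share of barcodes (%, linear axis from 0) with at least 3 of 12 proliferation genes at 5000 UMIs, by class and library; dark bars are barcodes above 5000 genes, grey bars barcodes with 500 to 5000 genes, lines are exact 95% binomial intervals and counts stand at the right. Macrophage-only barcodes above 5000 genes reach 36.6% and 41.4%, against 6.45% and 5.12% at 500 to 5000 genes.

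Clustering of the 185 members gave 3 groups, described here by their leading genes. A macrophage-like group of 90 (69 of 4T1P, 21 of 4T1M) was led by genes that included Ccl7, Il10, Mmp12, Cd93 and Ctsk. Some of these were high in fewer barcodes at the finer setting below. Ctsk (349 against 5.44 CPM in the rest) and Il10 (314 against 23.2 CPM) led a cluster of 25 there. Mmp12 was among the leading genes of a cluster of 12 (2784 against 146 CPM). The group of 90 detected all 10 macrophage markers and 6 of the 10 neutrophil markers, where the third group below detected all 10 of both lists. A tumor epithelial-like group of 54 (43 and 11) was led by Krt18, Krt8, Wfdc2, Cald1, Tm4sf1 and Epcam, and held all 44 tumor-carrying members together with 10 of the 11 without a call. The third group, of 41 (24 and 17), stays unnamed: its leading genes Ngp, Camp, S100a8, S100a9 and Ltf encode neutrophil granule and cytosol proteins, yet 30 of its barcodes were macrophage-only and 9 macrophage and neutrophil, and 37 of the 41 carried proliferation genes. At a finer setting, with 8 clusters, 8 barcodes that all carried macrophage and neutrophil markers (7 of them of 4T1M) formed a cluster of their own. Ngp, Camp, S100a8, S100a9 and Ltf led that cluster too, and it held no macrophage-only barcode. Ngp stood there at 2844 CPM against 1.77 CPM in all other members, and Camp at 2692 against 1.63 CPM. These genes thus marked the 8 barcodes and not the macrophage-only barcodes of the third group. Another 14 tumor-type barcodes that all carried proliferation genes had the highest median depth, 76937 UMIs.

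Macrophage-only members were compared with macrophage-only comparison barcodes of the same library by summed UMIs, over genes of at least 50 CPM in either group, with a log2 ratio of at least 1 or at most -1 taken as past the fold. In 4T1P, 69 of 3237 genes were higher in members (2.13%) and 36 lower (1.11%). In 4T1M, 129 of 3292 were higher (3.92%) and 89 lower (2.7%). With TMM scaling in place of totals, which moved the median log2 ratio of all genes from 0.08 to -0.03 and from 0.13 to -0.06, the counts were 54 higher and 52 lower in 4T1P and 75 higher and 148 lower in 4T1M. Of 3072 genes tested in both libraries, 57 were higher in both, 19 lower in both and 0 past the fold in opposite directions.

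The genes highest in macrophage-only members over the comparison barcodes were genes of the division cycle. All 7 proliferation genes tested in 4T1P and all 6 in 4T1M were past the fold, with a median log2 ratio of 3.11 in both. All but Mki67 reached 50 CPM in the members only, where they are high, so this count is a description and not a test. Mki67 reached the floor on both sides, at 373 against 106 CPM in 4T1P (1.82) and 430 against 120 CPM in 4T1M (1.83). Top2a, the topoisomerase that untangles replicated DNA, stood at 273 CPM against 29.3 CPM in 4T1P and 296 against 35.0 CPM in 4T1M. Hist1h1b, a linker histone made during DNA synthesis, stood at 211 against 17.1 CPM and 196 against 15.7 CPM, a log2 ratio of 3.63 and 3.64. Cenpe, Ccna2, Knl1, Ube2c, Racgap1, Pclaf, Cenpf and Birc5 completed the 10 highest as ranked by the smaller of both libraries' ratios. All are genes of DNA replication, the kinetochore or cell division, and their log2 ratios were 2.74 to 3.80. When barcodes that carried proliferation genes were left out of both sides, an alternative added after seeing the data, the number of higher genes in 4T1P was 7 instead of 69, and in 4T1M 92 instead of 129.

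The genes lowest in macrophage-only members included Inhba, Cxcl3 and Hbegf, which encode secreted factors. Inhba, a subunit of activin, stood at 20.4 CPM against 165 CPM in 4T1P (log2 ratio -3.01) and 25.7 against 325 CPM in 4T1M (-3.66). Cxcl3, a neutrophil-attracting chemokine, stood at 147 against 514 CPM and 109 against 498 CPM. Hbegf, an epidermal growth factor receptor ligand, had log2 ratios of -1.78 and -1.72, and Wfdc17 of -1.40 and -2.08; Cd24a, Pltp, Tnfrsf9, Thbs1, Errfi1 and Fbxo32 made up the other lowest. The macrophage effector list, which holds Spp1 and Mmp12 among others, had medians of -0.44 (16 genes tested, 3 past the fold lower) and -0.55 (17 tested, 4 lower). Below 0 were 14 of 16 and 17 of 17 of its genes, against 1295 of 3237 and 1290 of 3292 of all genes, which had medians of 0.08 and 0.13. Spp1 differed little, with log2 ratios of -0.04 and -0.09. Mmp12, macrophage elastase, stood at 432 against 1092 CPM and 401 against 1245 CPM.

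No antigen-presentation gene passed the fold in macrophage-only members over the comparison barcodes. The MHC class I and processing list had medians of 0.26 and 0.38 with 0 of 14 genes past the fold in either library, and 0.14 and 0.19 with TMM scaling. Within that list the class I molecules were below 0 in both libraries, H2-K1 at -0.12 and -0.27, H2-D1 at -0.21 and -0.41 and B2m at -0.15 and -0.19, while Psmb9, an immunoproteasome subunit, was above it (0.51 and 0.37) and Tapbp, the peptide-loading factor tapasin, was below it (-0.06 and -0.26). MHC class II genes had medians of -0.51 (6 of 6 below 0, all with intervals below 0) and -0.26 (5 of 7 below 0). Of all genes, 1295 of 3237 and 1290 of 3292 were below 0. The interferon response list lay at -0.03 over 16 genes with 0 past the fold and at -0.08 over 20 genes with 1 past the fold lower. Hba-a1, a hemoglobin chain of red cells that was chosen after its values were seen, had 0 UMIs in the members of 4T1P against 509 UMIs (71.3 CPM) in the comparison barcodes, at least 73.5-fold lower against the limit of 3 UMIs over the group.

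The tumor-only members of the 2 libraries were compared next. They numbered 32 with 1586371 UMIs in 4T1P and 10 with 676621 UMIs in 4T1M; the 4T1M barcodes were deeper (median 63354 against 41012 UMIs) and, with 10 of them, 1 barcode can decide a gene. Of 3508 genes tested, 49 were higher in 4T1M (1.4%) and 145 lower (4.13%), and the median log2 ratio of all genes was -0.09. Values without the barcode that holds most of a gene's UMIs in the higher group are given below for named genes that they take across the fold, and for some others, as an alternative added after seeing the data.

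Of the 12 epithelial junction and keratin genes tested, 9 belong to the list that made the tumor call, so the list's median log2 ratio of 0.59 (3 genes higher past the fold, 1 lower) is a description of the chosen barcodes. The 3 genes outside that list were Cdh1, E-cadherin, at 78.3 CPM in 4T1M against 35.9 CPM in 4T1P (1.12, and 0.98 without its top barcode, under the fold), Jup, plakoglobin, at 88.7 against 45.4 CPM (0.97, and 0.61) and Dsp, desmoplakin, at 85.7 against 58.6 CPM (0.55). Krt14, the keratin of basal and myoepithelial cells, stood at 186 CPM in 4T1M against 27.1 CPM in 4T1P (log2 ratio 2.78, 2.27 to 3.31, and 2.18 without its top barcode), with a UMI in 7 of 10 against 5 of 32 barcodes. Cldn7, a tight-junction protein, stood at 154 against 68.7 CPM. Krt8 and Krt18 had log2 ratios of -0.03 and -0.19. Krt19 had a log2 ratio of -2.20 (35.5 against 163 CPM), which turned to 0.54 without 1 barcode of 4T1P. Vim, the intermediate filament of mesenchymal cells, stood at 2687 against 4834 CPM (-0.85), and the mesenchymal list at a median of -0.18 over 8 genes.

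Part of the proliferation list was lower in the summed tumor-only UMIs of 4T1M. The list had a median log2 ratio of -1.86, with 9 of 12 genes past the fold lower and 0 higher, and -1.38 with the deepest barcode of each library left out. Most of its genes reached 50 CPM in 4T1P only, where they are high, so the median and count are descriptions and not tests. Those at 50 CPM in both libraries were Mki67 (-1.79), Top2a (-2.01), Tyms (-0.24), Pclaf (-0.23) and Rrm2 (-0.09). Ube2c, the ubiquitin-conjugating enzyme of the anaphase-promoting complex, stood at 13.3 against 223 CPM (log2 ratio -4.07), Cenpf at 44.3 against 394 CPM (-3.15, and -2.61 without its top barcode) and Top2a at 152 against 612 CPM; Cdc20, Hmmr and Cenpe were among the 10 lowest as well. By barcodes, however, the shares that carried the list, 2 of 10 and 9 of 32, had intervals that overlapped widely, and the number of barcodes behind a sum differed between genes: Ube2c had a UMI in 4 of 10 and 9 of 32, and Top2a in 9 of 10 and 18 of 32.

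Genes of hypoxia and glycolysis had a median log2 ratio of -0.54 in the tumor-only members, 4T1M over 4T1P. Of 15 genes tested, 14 were below 0 and 2 past the fold lower. Of all 3508 genes, 2042 were below 0 and 145 past the fold lower. Car9, a carbonic anhydrase induced by low oxygen, stood at 31.0 against 112 CPM (-1.85), and Slc2a1, the glucose transporter GLUT1, at 60.6 against 130 CPM (-1.10, and -0.81 without its top barcode). Ldha, lactate dehydrogenase A, stood at 581 against 951 CPM (-0.71). With proliferating barcodes left out, an added alternative, the list's median was -0.86 over 16 genes. In macrophage-only members 12 of 13 genes of this list were below 0 as well, with a median of -0.30 and 0 past the fold. Of all 3287 genes tested there, 1521 were below 0.

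Secreted factors that act on myeloid cells went in both directions. Csf3, encoding G-CSF, the growth factor of neutrophils, stood at 60.6 CPM in 4T1M against 253 CPM in 4T1P (log2 ratio -2.06, and -1.38 without its top barcode), with a UMI in 7 of 10 and 24 of 32 barcodes. Lif, a cytokine of the interleukin-6 family, stood at 19.2 against 78.2 CPM (-2.02), and Csf1, the macrophage growth factor, at 82.8 against 156 CPM (-0.92). Cxcl1 and Lcn2, a neutrophil chemokine and an iron-binding defense protein, stood at 1027 against 670 CPM (0.62) and 742 against 389 CPM (0.93), and had log2 ratios of 0.24 and 0.64 without their top barcodes. Cxcl2, another neutrophil chemokine, turned from 0.43 to -0.69. Csf2, encoding GM-CSF, was the 1 listed gene higher past the fold (70.9 against 15.8 CPM, 2.17), and fell below 0 (-0.94) without 1 barcode. Across the 9 genes tested the median was -0.10.

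MHC class I genes of the tumor-only members were close between libraries, while the class II genes tested had log2 ratios above 0, though not all without their top barcode. The MHC class I and processing list had a median of -0.01 over 14 genes, none past the fold, with H2-D1 at 2926 against 2955 CPM, H2-K1 at 2116 against 1962 CPM and B2m, the shared light chain, at 1473 against 1443 CPM. The interferon response list had a median of -0.29 over 10 genes with 1 past the fold (Gbp3, -1.08, and -0.85 without its top barcode), and -0.88 over 9 genes with proliferating barcodes left out. MHC class II genes were detected in these barcodes, with Cd74, the invariant chain, at 891 against 685 CPM and H2-Ab1 at 312 against 159 CPM (0.97, and 0.65 without its top barcode). The 5 genes tested were all above 0, with a median of 0.57 and none past the fold. Without their top barcodes H2-Eb1 stood at 0.50, H2-Aa at 0.26 and Cd74 at 0.14, and H2-DMa turned from 0.01 to -0.12. Of all 3508 genes, 1466 were above 0. Macrophage-list UMIs were at 0 per 5000 in 36 of the 42 barcodes, and those of the dendritic list in 20 of 32 and 6 of 10, at most 3 and 2; the part of either in the class II levels was not tested.

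Of the other genes at the extremes of the tumor-only comparison, some rested on 1 barcode, while most stayed past the fold without their top barcode. Mmp3, the matrix enzyme stromelysin-1, had 4 UMIs in 4T1M against 258 in 4T1P (5.91 against 163 CPM, log2 ratio -4.78, -6.67 to -3.41, and -3.99 without its top barcode), in 4 and 20 barcodes. H19, an imprinted noncoding RNA, stood at 65.0 against 364 CPM (-2.49), and H2afx, a histone variant of DNA damage signaling, at 28.1 against 115 CPM (-2.04, and -1.55 without its top barcode). Fxyd3 (133 against 29.0 CPM), Nrp1, a semaphorin and VEGF co-receptor (109 against 28.4 CPM), Igfbp7 (395 against 150.0 CPM) and Ube2q2 (185 against 74.4 CPM) were higher in 4T1M with and without their top barcode. Ccl3, a macrophage chemokine, had a log2 ratio of 4.29 that was 1.32 without 1 barcode, Mmp9, the gelatinase of neutrophil granules, 3.10 and 0.42, and Timp1, a metalloproteinase inhibitor, 2.33 and -0.30. S100a9 and S100a8 had log2 ratios of 2.47 and 2.35, and 1.45 and 1.53 without their top barcode; both are neutrophil-list genes, that list had a median of 0 UMIs per 5000 in 4T1P (21 of 32 at 0, at most 2) and 2 in 4T1M (3 of 10 at 0, at most 12), and its part in these ratios was not tested. Of the genes at 0 in 1 library, chosen after their values were seen, Postn, a matrix protein, had 39 UMIs in 3 barcodes of 4T1M and 0 in 4T1P, at least 30.5-fold higher against the limit of 3 UMIs over the group, and Prlr, the prolactin receptor, had 93 UMIs in 1 barcode of 4T1P and 0 in 4T1M, at least 13.2-fold lower, a difference that rests on that barcode.

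**Figure D5:**
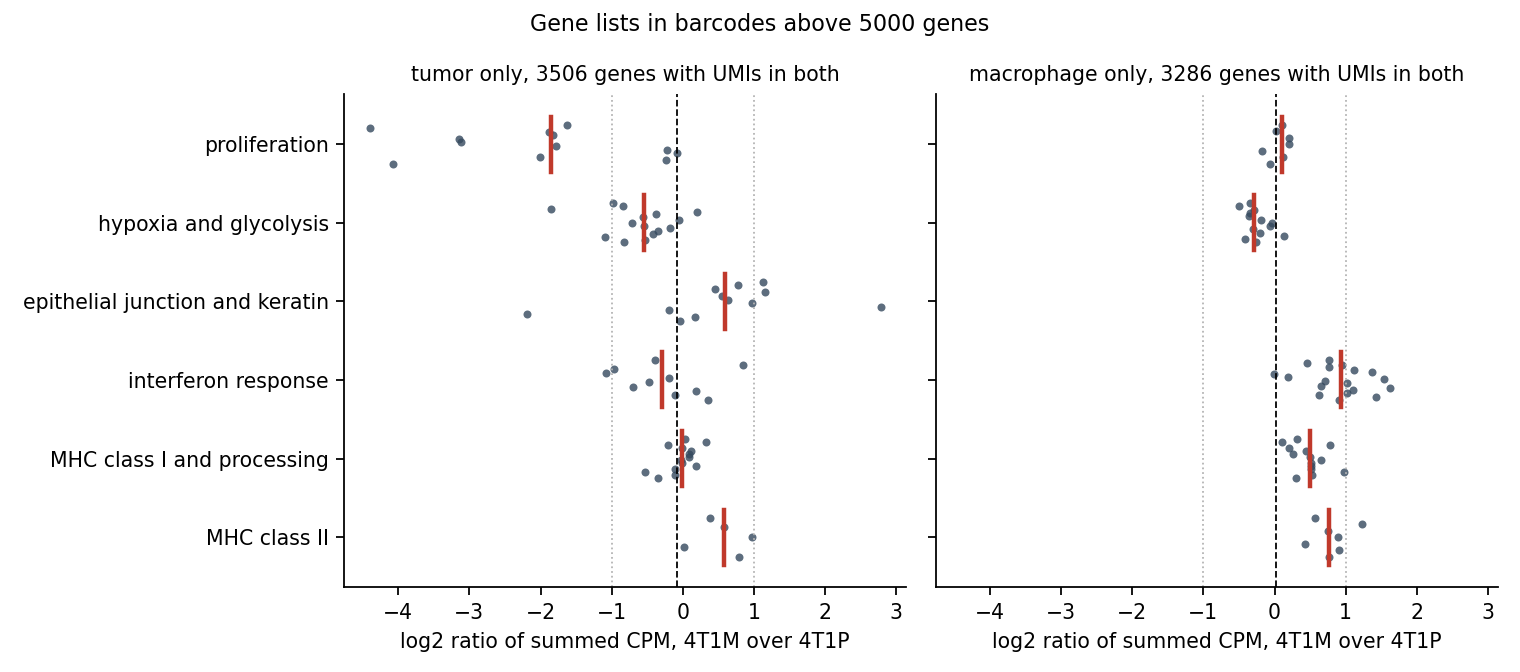
Log2 ratio of summed CPM, 4T1M over 4T1P (x), for each tested gene of 6 lists (y) in tumor-only (left) and macrophage-only (right) barcodes above 5000 genes; red bars are list medians, the dashed line the median of all genes and dotted lines the fold limits. Proliferation genes sit at a median of -1.86 on the left and 0.11 on the right, and interferon response genes at -0.29 and 0.93. On the left most proliferation genes reached 50 CPM in 4T1P only, so their median is a description. No keratin list is shown on the right because none of its genes reached 50 CPM.

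Macrophage-only members showed genes of the interferon response list at higher levels in 4T1M. They numbered 82 with 3092994 UMIs in 4T1P and 29 with 933393 in 4T1M. Of 3287 genes tested, 35 were higher in 4T1M (1.06%) and 39 lower (1.19%), and the median of all genes was 0.02. Members with macrophage markers, alone or with neutrophil markers, were not spread alike over the finer clusters: 1 cluster led by Dnase1l3, Ccl8, Il12b, Plac8 and Irf7 held 14 barcodes of each library, while those led by Lyve1 and Fcna and by Retnla and Mmp12 held 24 and 11 of 4T1P against 1 and 1 of 4T1M. The ratios below are of the whole class, and the part of this make-up in them was not tested. The interferon response list had a median log2 ratio of 0.93 over 18 genes, with 8 past the fold higher, 0 lower and 17 above 0. Of all 3287 genes, 1766 were above 0. Without their top barcodes Oasl1 (0.95), Oasl2 (0.91) and Irgm1 (0.79) fell under the fold, which leaves 5. Ly6e, a surface protein induced by interferon, stood at 588 CPM in 4T1M against 191 CPM in 4T1P (log2 ratio 1.62, 1.45 to 1.79), with a UMI in 29 of 29 and 58 of 82 barcodes. Irf7, which drives type I interferon genes, stood at 147 against 50.4 CPM (1.54), Rsad2, the antiviral enzyme viperin, at 639 against 239 CPM (1.42), and Ifi44 at 251 against 97.3 CPM (1.37). Ifnb1, interferon beta itself, went the other way, at 21.4 against 57.9 CPM (-1.43).

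Antigen-presentation genes also had log2 ratios above 0, but 0 of 14 class I and 1 of 7 class II genes passed the fold. All 14 MHC class I and processing genes were above 0 with a median of 0.50 and 0 past the fold, where 1766 of all 3287 genes were above 0. Tap1, a subunit of the peptide transporter, had the largest ratio of the 14, at 199 against 102 CPM (0.97). All 7 MHC class II genes were above 0 with a median of 0.76, among them H2-Ab1 at 2634 against 1423 CPM (0.89) and Ciita, the class II transactivator, at 81.4 against 34.6 CPM (1.23, and 0.89 without its top barcode). With barcodes that lacked an Xist UMI left out, an added alternative, the interferon median was 0.71, that of class I 0.43 and that of class II 0.53. In the macrophage-only comparison barcodes, Ly6e stood at 190 CPM in 4T1P and 525 CPM in 4T1M and H2-Ab1 at 2038 and 3159 CPM, so the members were not alone in these levels.

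Genes lower in the macrophage-only members of 4T1M were led by S100a4, F13a1 and Thbs1. S100a4, a calcium-binding protein of motile cells, stood at 7.50 CPM in 4T1M against 177 CPM in 4T1P (log2 ratio -4.56, -5.88 to -3.51), with a UMI in 3 of 29 and 42 of 82 barcodes. F13a1, a coagulation factor subunit made by monocytes and macrophages, stood at 22.5 against 335 CPM (-3.90) in 4 of 29 and 48 of 82 barcodes, and Thbs1, thrombospondin-1, at 7.50 against 102 CPM (-3.77). Slpi, S100a6, Ccl9, Pf4, Ecm1, Ahnak and Hspa1b completed the 10 lowest, with log2 ratios of -2.62 to -1.47, and none of the 10 turned direction without its top barcode. The comparison barcodes held S100a4 at 245 CPM in 4T1P and 127 CPM in 4T1M, and F13a1 at 439 and 137 CPM, so 4T1M members lay under the macrophages of their own library by a log2 ratio of -4.08 and -2.61. Ctsk, the collagen-degrading cathepsin, chosen after its values were seen, had 193 UMIs in 6 barcodes of 4T1P and 0 in 4T1M, at least 19.4-fold lower against the limit of 3 UMIs over the group.

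Among the other genes highest in macrophage-only members of 4T1M were Plac8 (204 against 26.5 CPM, 2.94), Adamdec1, a metalloprotease of tissue macrophages (186 against 31.7 CPM, 2.56), and Il1r2, the decoy receptor of interleukin-1 (118 against 26.8 CPM, 2.13). Spon1 and AA467197 followed with 1.58 and 1.41. S100a9 stood at 352 against 113 CPM (1.64); the neutrophil list was at 0 per 5000 in 5 of 29 members of 4T1M against 34 of 82 of 4T1P, with upper quartiles of 4 and 2 UMIs and a median of 1 in both, and its part was not tested. Fn1, fibronectin, stood at 1853 against 3672 CPM (-0.99), Il6 at 83.6 against 203 CPM (-1.28), and Il1b at 4215 against 2693 CPM (0.65). Proliferation genes were at like levels, with a median of 0.11 over 7 genes and none past the fold.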

How the data were processed

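Per the labels and the file headers, the authors aligned droplet reads to GRCm38 (mm10) with Cell Ranger (4.0.0 by the processing notes and header; the methods name another version), and the deposited values are raw UMI counts per gene and barcode, not normalized, for 32285 features and barcodes of at least 500 UMIs. The members and gene lists were chosen with earlier results of these data known, and genes were named by a fixed rule: listed genes, the 10 highest and 10 lowest ratios between libraries where a gene reached 100 CPM in either, the 10 highest and 10 lowest of members against comparison barcodes by the smaller of both libraries' ratios, and each cluster's leading genes; exceptions are named in the text, and some listed genes are not reported here. Barcodes were thinned to 5000 UMIs without replacement for marker calls; 1013 and 2338 shallower barcodes of the kept range were left out. UMIs were summed per class as CPM, with exact Clopper-Pearson, Poisson and conditional intervals. Members were clustered with scanpy 1.11.5 (2000 variable genes, 25 components, 15 neighbors, Leiden resolution 0.5; igraph 0.11.9). TMM factors came from edgeR 4.0.16, used for scaling only. The ratio and its interval (on the tumor-only comparison) and the thinning were tested on simulated data. Gene positions are from GENCODE. The libraries share 5 barcode sequences, 0 of them members. Doublets were not removed. UMI counts of the 2 libraries were used, and no other data of the study.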

Additional observations from a re-analysis of the deposited data

Results flagged for a closer look

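Tumor-carrying barcodes also lay outside both ranges compared in the report. In 4T1P, 5 of the 43 tumor-carrying barcodes with at least 5000 UMIs had at most 5000 genes and more than 10% mt- UMIs, and their levels enter no comparison of the report, which counts them once in the total of 43. They are listed because they are tumor-carrying barcodes seen outside the ranges compared, and no control library was used here.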

How the results depend on the processing

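Of the shares, counts and cluster numbers that answer a comparison, 81 values under an alternative stayed near the reported one, 41 moved and no value changed sign, but some orders turned, among them tumor against macrophage shares above 6000 genes in 4T1M, and higher against lower genes in 4T1M over comparison barcodes with TMM scaling, and in both libraries with proliferating barcodes left out (7 higher and 32 lower in 4T1P, 92 and 99 in 4T1M). The members made up 7.74% and 1.88% of 4T1P and 4T1M with more than 4500 genes, 1.73% and 0.260% with more than 6000, and 6.12% of 4T1P when barcodes over 10% mt- UMIs were left out. With more than 6000 genes, tumor markers were carried by 41.2% (4T1P) and 76.9% (4T1M), macrophage markers by 41.2% and 23.1%, and in 4T1P neutrophil markers and 2 or more lineages by 1.96% each and proliferation genes by 56.9%. With at least 4 markers the tumor share of 4T1P was 15.4%. With at least 2 markers, neutrophil markers were carried by 20.6% and 51.0%, 2 or more lineages by 19.9% and 51.0%, and proliferation genes by 44.1% in 4T1P. Not thinned, these shares were 58.8% and 75.5%, 57.4% and 75.5%, and 58.8% and 69.4%; at 2000 UMIs proliferation in 4T1P was 24.3%.

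With a floor of 10 CPM, more genes entered and 377 were higher and 701 lower in tumor-only members of 4T1M, 187 and 278 in macrophage-only members, and 316 and 116 (4T1P) and 544 and 326 (4T1M) in macrophage-only members over comparison barcodes. With more than 6000 genes, 610 and 742 genes passed between macrophage-only members, with 1 barcode left in 4T1M. TMM scaling gave 75 and 148 in 4T1M over comparison barcodes. With proliferating barcodes left out, 55 and 73 genes passed between macrophage-only members, and 7 were higher over comparison barcodes in 4T1P; this alternative and all those on proliferation shares were chosen after seeing the data. Resolution 1.0 gave 8 clusters. Of the list medians and other single values, 189 stayed near and 60 moved; medians near 0 could change sign, as that of myeloid-attracting factors in tumor-only members did (-0.10, and 0.15 without the deepest barcode of each library). No paired analysis was possible because each condition is 1 library. The tumor-only sums of 4T1M rest on 10 barcodes.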
